A study of Mus musculus with 6 samples.

Results

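The genes described here are 7 markers of the fetal liver and of hepatocellular cancer: Alb, Afp, Ttr, Gpc3, Epcam, H19 and Dlk1. They were taken by gene symbol from a table of 34745 mouse genes, and each of the 7 symbols was found there. The table holds RNA sequencing of 6 tumours grown from Hep1-6, an established mouse hepatoma cell line, injected under the skin of C57BL/6J mice. Of these tumours, 3 came from hosts on a normal diet (ND 1 to ND 3) and 3 from hosts on a high cholesterol diet (HCD 1 to HCD 3). Both groups share the cell line, the host strain and the site of injection, and no treatment other than diet is given in the labels. The sources used here do not give the age and sex of the hosts or the length of feeding. The tumours stand for 1 cell line, and a piece of tumour also holds host cells. The labels do not say that the 3 tumours of a group came from different mice, so the p-values speak only of the spread between these samples, which may be technical.

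The fetal liver makes alpha-fetoprotein as a main plasma protein, and after birth albumin takes that place while Afp, H19 and Gpc3 are shut down in hepatocytes, in part by the repressor Zhx2. Afp, Gpc3, H19, Dlk1 and Epcam are called oncofetal because they are active in fetal or progenitor cells of the liver, low in adult hepatocytes, and often active again in liver cancer. Alb and Ttr encode plasma proteins made by fetal and adult hepatocytes alike.

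Alb and Afp are neighbours in 1 gene cluster, and the control regions just before them are shown because these genes gave the highest levels of the 7. In GENCODE M21 on GRCm38, Alb spans chr5:90460897-90476602 and Afp starts 14.1 kb after it, at chr5:90490737-90508907, both on the plus strand. The sequences come from RefSeq (GRCm38.p6) and are the 120 bases before each gene's RefSeq start. Capitals mark the letters GTTAAT, the core of the site bound by the hepatocyte factor HNF1. The RefSeq starts, chr5:90460870 for Alb and chr5:90490714 for Afp, lie before the GENCODE starts given above. The windows are chr5:90460750-90460869 for Alb and chr5:90490594-90490713 for Afp.
Alb, plus strand: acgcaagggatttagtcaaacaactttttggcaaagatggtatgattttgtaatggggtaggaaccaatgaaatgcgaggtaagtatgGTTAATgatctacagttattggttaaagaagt
Afp, plus strand: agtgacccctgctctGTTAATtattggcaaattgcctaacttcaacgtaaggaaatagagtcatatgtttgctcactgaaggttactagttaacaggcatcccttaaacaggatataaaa
GTTAAT began 32 bases before the RefSeq start of Alb and 105 bases before that of Afp. Searched on both strands over 250 bases before the start, it was found in 6.43% of 32851 RefSeq windows, Alb and Afp among them, and not in the windows of Gpc3, Dlk1 or Epcam. CCAAT, also searched on both strands, had 2 matches at Alb, 1 at Afp, 1 at Gpc3 and none at Dlk1 or Epcam, and was found in 33.9% of windows. None of the CCAAT matches at Alb and Afp overlapped GTTAAT. The Gpc3 window stood apart in base composition, with 71.6% G and C and 25 CpG pairs, against 39.2% and 2 at Alb, 36.0% and 1 at Afp, and medians of 52.4% and 6 over all windows. A match is a description of letters and no evidence of binding.

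Levels are given in FPKM, read pairs scaled to gene length and to library size, as the authors deposited them. The 7 genes spanned a wide range. Alb had the highest mean over the 6 libraries (1407 FPKM), followed by Afp (148 FPKM), Epcam (24.2 FPKM), Ttr (8.25 FPKM), H19 (5.48 FPKM), Gpc3 (2.00 FPKM) and Dlk1 (0.0319 FPKM). The ranges over libraries did not overlap between Alb and Afp, Afp and Epcam, Epcam and Ttr, or Gpc3 and Dlk1. They overlapped between Ttr and H19, where Ttr was the higher in 5 of 6 libraries, and between H19 and Gpc3, where H19 was the higher in 2 of 6, so the place of H19 was not fixed beyond its spread, while Ttr was above Gpc3 in all 6.

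**Figure D1:**
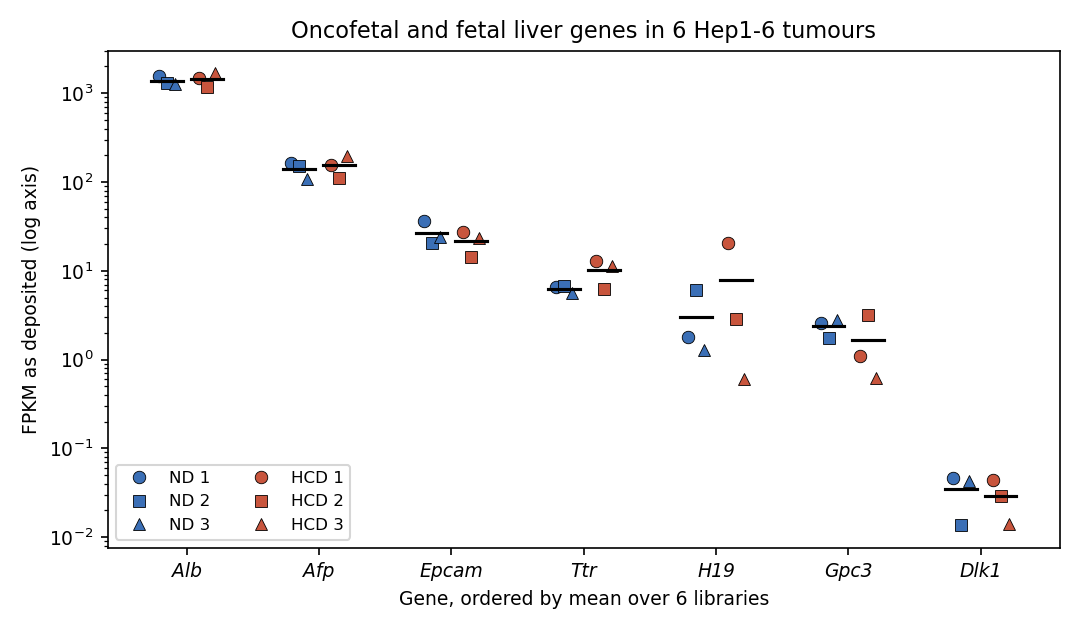
FPKM of the 7 genes (log axis) in each library, with circles, squares and triangles for libraries 1, 2 and 3, blue for ND and red for HCD, and bars at the group means. The points of both diets overlap for every gene, Alb lies between 1176 and 1672 FPKM in all 6 tumours, and H19 has the widest spread, from 0.597 to 20.4 FPKM.

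The order depends on the gene length in the FPKM values. For genes with 2 or more annotated transcripts, the deposited values became whole read numbers in all 6 libraries for 68.6% of 10538 genes when every distinct exon was counted at its full length, overlapping exons repeatedly, and for 0.799% of 10883 genes when overlapping exons were merged. This check took genes whose highest library held 20 to 3000 reads and a tolerance of 0.02 of a read. The counting shrinks the FPKM of genes with many overlapping exons. For Dlk1 the length behind the values was 16789 bases against a merged 5657, and for H19 it was 5688 against 2460, which is 2.97 and 2.31 times as long. The lengths of H19, Epcam and Ttr were searched for whole reads, since the summed exon lengths of M21 (8060, 3615 and 1186 bases) did not give them, so the rescaled H19 level and its read numbers rest on the search. For Alb, Afp, Gpc3, Epcam and Ttr the length was 1.09, 1.27, 1.15, 0.929 and 1.03 times the merged one. Rescaled to merged length, the mean over libraries was 1540 FPKM for Alb, 188 for Afp, 22.5 for Epcam, 12.7 for H19, 8.48 for Ttr, 2.31 for Gpc3 and 0.0946 for Dlk1. H19 then had a higher mean than Ttr, but was the higher of the pair in 3 of 6 libraries only, and its range then overlapped that of Epcam. Differences between diets within a gene are not touched by its length, apart from the pseudocount.

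**Figure D2:**
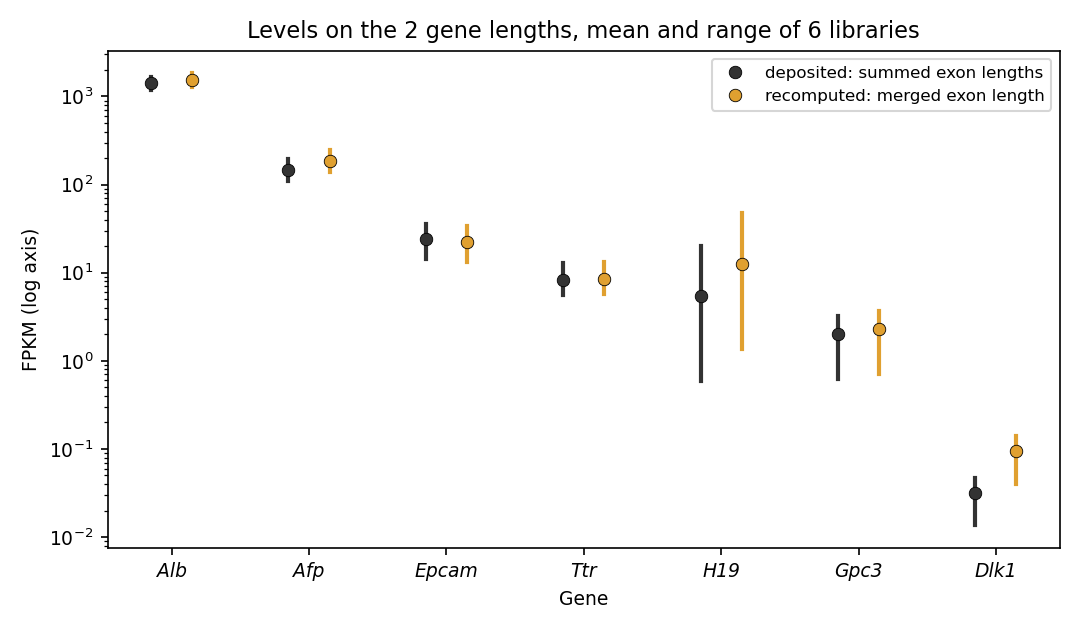
Mean and range over 6 libraries of the FPKM of each gene (log axis), as deposited (black) and recomputed on the merged exon length (orange). H19 and Dlk1 move up, from 5.48 to 12.7 FPKM and from 0.0319 to 0.0946 FPKM, and the other genes shift little.

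None of the tested genes was called different between the diets. Of the 7, 6 had a mean of at least 0.5 FPKM and were tested, and 0 of the 6 passed an adjusted p of 0.05 (limma, Benjamini-Hochberg over 13417 genes), where 0% of all genes tested passed. At an unadjusted p under 0.05 there were 0 of 6, against 5.88% of all genes tested (2.56% higher in HCD and 3.32% lower). By the sign of the difference alone, 4 of the 6, Alb, Afp, Ttr and H19, had a higher mean in HCD, as did 55.7% of all genes tested. The ND and HCD values overlapped for all 7, including Dlk1, which was not among the genes tested. The groups did not overlap in 12.1% of all genes tested, and at that share, overlap in all of so few genes is not particular to them. Differences are given as HCD less ND, on log2(FPKM + 1), a scale that understates those of genes with low values, and their median over all genes tested was 0.02. In such bulk samples, fewer cells of a type and less RNA per cell cannot be told apart.

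Alb (ENSMUSG00000029368) encodes serum albumin, the main plasma protein made by hepatocytes. It was at 1553, 1299 and 1272 FPKM in the tumours ND 1 to ND 3, whereas HCD 1 to HCD 3 stood at 1469, 1176 and 1672 FPKM. The highest and the lowest tumour were both on the high cholesterol diet, and the ND values lay between them. Group means were 1375 ± 155 FPKM in the ND and 1439 ± 250 FPKM in the HCD tumours (SD, n = 3). The log2 difference was 0.06 (SE 0.15, 95% interval -0.31 to 0.42, limma adjusted p = 0.933). Alb took from 0.301% of all read pairs in HCD 2 (95% Wilson interval 0.299 to 0.304%) to 0.429% in HCD 3 (0.426 to 0.431%), which made it the 4th to 6th most counted gene of a library. The highest tumour had 1.42 times the Alb FPKM of the lowest, and the intervals cover counting error only.

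Afp (ENSMUSG00000054932) encodes alpha-fetoprotein, the fetal counterpart of albumin and a serum marker of liver cancer. It was at 165, 151 and 109 FPKM in the ND tumours and at 156, 110 and 197 FPKM in the HCD tumours. HCD 3 was the highest tumour, and ND 3 and HCD 2 were the lowest and nearly equal. Group means were 142 ± 28.9 FPKM in the ND and 154 ± 43.6 FPKM in the HCD tumours (SD, n = 3), with a log2 difference of 0.10 (SE 0.25, 95% interval -0.49 to 0.70, limma adjusted p = 0.927). Among all genes of a library, Afp ranked between 149 and 298 by FPKM, and 9591 to 17600 read pairs stood behind each value. The signs of the Alb and Afp differences are not fixed by these data: without HCD 3 they were -0.06 and -0.09, and without ND 3 that of Afp was -0.07.

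The balance of fetal and adult plasma protein transcripts was narrower than the level of Afp. Alb exceeded Afp by 9.42, 8.62 and 11.6 times in ND 1 to ND 3 and by 9.43, 10.7 and 8.49 times in HCD 1 to HCD 3. The tumours with the most Alb, HCD 3, ND 1 and HCD 1, were also the 3 with the most Afp. Over the 6 libraries the SD on the log2 scale was 0.33 for Afp, 0.19 for Alb and 0.18 for their ratio, a description of libraries that share 1 cell line. The log2 ratio of Afp to Alb was -3.28 ± 0.22 in ND and -3.24 ± 0.16 in HCD (SD, n = 3), a difference of 0.05 (exact two-sided permutation p = 0.8, where 3 against 3 allows no p below 0.1).

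**Figure D3:**
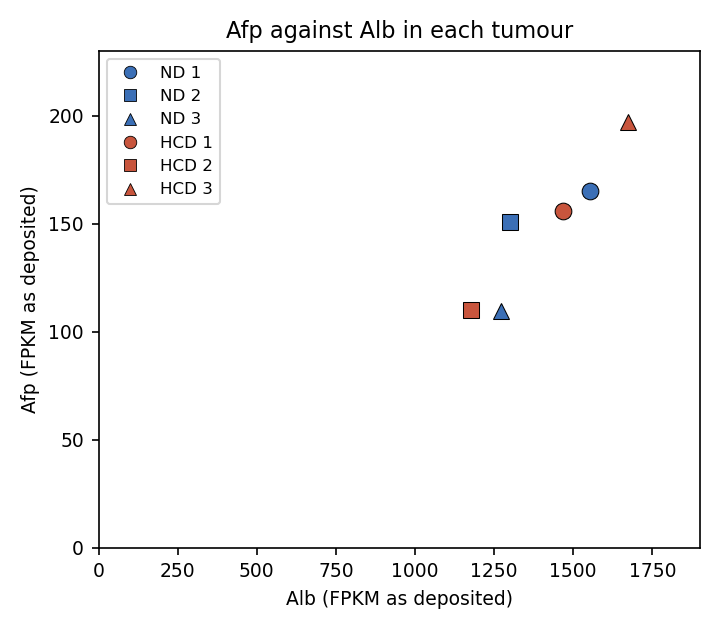
Afp against Alb, both in FPKM as deposited with axes from 0, with 1 point for each tumour, blue for ND and red for HCD. The points climb from HCD 2 (1176 and 110 FPKM) to HCD 3 (1672 and 197 FPKM), and the diets are mixed along the way.

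The other genes of the albumin cluster were far lower. Afm, which encodes afamin, starts 10.0 kb after Afp and was at 0.404 FPKM on average (0.228 to 0.636 FPKM), below the level for testing. Gc, the plasma carrier of vitamin D, had a mean of 3.24 FPKM, and its 4.04 ± 2.51 FPKM in the ND and 2.44 ± 0.228 FPKM in the HCD tumours (SD, n = 3) gave a log2 difference of -0.44 (limma adjusted p = 0.803). That value was -0.06 without ND 3, which had the most Gc (6.85 FPKM), and -0.75 without ND 2. Of 12 further markers of adult hepatocytes, 8 had a mean under 0.5 FPKM, among them the urea cycle gene Cps1, the gluconeogenic genes Pck1 and G6pc, and Cyp2e1. Cyp2e1 was at the edge of that group, with a mean of 0.497 FPKM and 1.02 FPKM in HCD 1. The other 4 were Ass1, Apoa1, Arg1 and Tat, with means of 65.9, 41.3, 20.1 and 1.11 FPKM.

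Ttr (ENSMUSG00000061808; chromosome 18, 20665280 to 20674321, plus strand) encodes transthyretin, which carries thyroxine and the retinol-binding protein in plasma. It was at 6.49, 6.82 and 5.61 FPKM in the ND and at 12.9, 6.23 and 11.4 FPKM in the HCD tumours. HCD 1 and HCD 3 lay above every ND tumour, while HCD 2 fell within the ND range. Group means were 6.31 ± 0.626 FPKM in the ND and 10.2 ± 3.52 FPKM in the HCD tumours (SD, n = 3). The log2 difference of 0.56 (SE 0.25, 95% interval -0.03 to 1.16) had the lowest unadjusted limma p of the 6 tested genes, 0.0603, with limma adjusted p = 0.794. Without HCD 2 the difference was 0.85 (limma adjusted p = 0.748), and an exact two-sided permutation test of all 6 values gave p = 0.3. Values rested on 141 to 321 read pairs.

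The carrier that binds transthyretin was abundant. Rbp4, which encodes plasma retinol-binding protein, was at 262 ± 3.81 FPKM in the ND and 252 ± 25.2 FPKM in the HCD tumours (SD, n = 3), and Stra6, its cell surface receptor, at 66.7 ± 2.80 and 69.5 ± 3.01 FPKM. Of 6 genes listed for retinol and thyroxine transport, 4 were tested and 0 called, with 2 higher and 2 lower means in HCD and a median log2 difference of 0.00. The genes whose profile over the 6 libraries was nearest to that of Ttr were Gpam, a glycerol-phosphate acyltransferase, Tst, a mitochondrial sulfurtransferase, and Tmem37. Their root mean square distances on centred log2 values were 0.137, 0.176 and 0.193. Gpam, the nearest, was likewise high in HCD 1 (13.5 FPKM) and HCD 3 (10.4 FPKM) and at 5.24 to 8.51 FPKM in the other 4 tumours.

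Epcam (ENSMUSG00000045394, chr17:87635979-87651129, plus strand) encodes a cell adhesion protein of epithelial progenitors and bile duct cells that mature hepatocytes lack. It was at 36.1, 20.5 and 23.8 FPKM in the ND and at 27.6, 14.3 and 23.3 FPKM in the HCD tumours. ND 1 was the highest and HCD 2 the lowest tumour, and the other 4 were mixed between the diets. Group means were 26.8 ± 8.23 FPKM in the ND and 21.7 ± 6.82 FPKM in the HCD tumours (SD, n = 3), with a log2 difference of -0.30 (SE 0.29, 95% interval -1.01 to 0.41, limma adjusted p = 0.829). The summed level of 6 macrophage markers ran the other way at these ends, at 228 FPKM in ND 1, its lowest value, and 915 FPKM in HCD 2, its highest (228 to 551 FPKM over the ND and 374 to 915 FPKM over the HCD tumours), and all 6 reached 1 FPKM in every library. The sums of 5 T cell markers (4.56 and 36.2 FPKM) and of 5 endothelial markers (49.2 and 106 FPKM) were likewise lowest in ND 1 and highest in HCD 2. Between these ends the orders were not opposite. HCD 1, with the second most Epcam, had a macrophage sum of 549 FPKM, above ND 3 (445 FPKM) and HCD 3 (374 FPKM), both with less Epcam. The part of macrophages, T cells and endothelium in the Epcam values was not tested. Col27a1, a fibrillar collagen gene, the transcript RP24-462O14.3 and Foxq1, a forkhead transcription factor, had the profiles nearest to that of Epcam, at distances of 0.132, 0.136 and 0.138, and each was highest in ND 1 and lowest in HCD 2.

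Genes listed as Epcam partners and epithelial junction proteins numbered 10, of which 6 were tested and 0 called, with 3 higher and 3 lower means in HCD and a median log2 difference of 0.01. Tspan8, a tetraspanin found in complexes with Epcam, was at 232 ± 13.4 FPKM in the ND and 200 ± 23.3 FPKM in the HCD tumours (SD, n = 3). Cd9, another tetraspanin, was at 78.3 ± 1.20 and 77.4 ± 1.93 FPKM. Tjp1, a scaffold of tight junctions, was at 42.8 ± 3.39 and 36.1 ± 1.68 FPKM, a log2 difference of -0.24 (limma adjusted p = 0.794). It was the 1 of the 6 tested without overlap between the groups, where 12.1% of all genes tested had none.

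Gpc3 (ENSMUSG00000055653, chrX:52272426-52613950, minus strand) encodes glypican-3, a heparan sulphate proteoglycan of the cell surface and a tissue marker of human liver cancer. It was at 2.61, 1.73 and 2.76 FPKM in the ND and at 1.11, 3.20 and 0.616 FPKM in the HCD tumours. HCD 2 was the highest of the 6 and HCD 1 and HCD 3 were the lowest, so the HCD group enclosed the ND values. The read pairs behind the HCD values were 70, 203 and 40, and the 95% Poisson interval of HCD 3 (28.6 to 54.5) and that of HCD 2 (176 to 233) did not meet, although these intervals cover counting error only and the libraries had nearly the same size. Group means were 2.37 ± 0.556 FPKM in the ND and 1.64 ± 1.37 FPKM in the HCD tumours (SD, n = 3), with a log2 difference of -0.46 (SE 0.35, 95% interval -1.32 to 0.40, limma adjusted p = 0.805). HCD 2 decided the size of that value, which was -0.85 without it (limma adjusted p = 0.748), and without HCD 3 it was -0.16. On recovered reads, limma-voom gave -0.81 (95% interval -2.08 to 0.45).

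Fibroblast markers gave different orders of the tumours by their mean and by their sum. The mean log2 level of 6 fibroblast genes was 5.09, 4.67 and 4.78 in ND and 4.78, 5.35 and 4.28 in HCD, highest in HCD 2 and lowest in HCD 3, as Gpc3 was. Their summed level, most of it Dcn, was 1110, 911 and 913 FPKM in ND and 1019, 904 and 824 FPKM in HCD, highest in ND 1, with HCD 2 the second lowest. Of the 6 genes, 5 or 6 reached 1 FPKM in each library and none was at 0, and their part in the Gpc3 values was not tested. The profiles nearest to Gpc3 were those of Ackr3, a scavenging chemokine receptor, Has1, a hyaluronan synthase, and Fbln1, an extracellular matrix glycoprotein, at distances of 0.155, 0.168 and 0.218. Gpc4, the glypican gene next to Gpc3 on the X chromosome, 107.2 kb away, was higher and steadier, with a mean of 14.7 FPKM and a range of 13.5 to 16.3 FPKM. Of 9 glypicans and heparan sulphate co-receptors 6 were tested and 0 called, with 3 higher and 3 lower means and a median log2 difference of -0.08. The syndecan gene Sdc4 led the list at 65.5 ± 6.48 FPKM in the ND and 54.0 ± 7.84 FPKM in the HCD tumours (SD, n = 3). Gpc1, a glypican, was at 28.1 ± 2.83 and 29.1 ± 0.898 FPKM. Sdc2, another syndecan, was at 17.5 ± 0.402 and 15.1 ± 0.570 FPKM, a log2 difference of -0.20 (limma adjusted p = 0.794). It was the 1 of the 6 tested without overlap between the groups, where 12.1% of all genes tested had none.

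H19 (ENSMUSG00000000031, chr7:142575529-142578143, minus strand) is an imprinted long noncoding RNA of fetal tissues, transcribed from the maternal copy. It is also the host of the microRNA miR-675, whose RefSeq mature sequences are shown because they are the processed product of this transcript, with the seed (bases 2 to 8) in capitals. They lie on GRCm38.p6 at chr7:142577112-142577133 (5p) and chr7:142577078-142577099 (3p), minus strand, and these libraries do not measure mature microRNAs.
miR-675-5p: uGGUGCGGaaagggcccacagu
miR-675-3p: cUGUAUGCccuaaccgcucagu
H19 was at 1.78, 6.03 and 1.29 FPKM in the ND and at 20.4, 2.83 and 0.597 FPKM in the HCD tumours. HCD 1 was far above the rest and HCD 3 was the lowest, a 34.1-fold range with 71 to 2357 read pairs, and within ND the library ND 2 stood above ND 1 and ND 3. Group means were 3.03 ± 2.61 FPKM in the ND and 7.93 ± 10.8 FPKM in the HCD tumours (SD, n = 3). The log2 difference was 0.52 (SE 0.97, 95% interval -1.83 to 2.86, limma adjusted p = 0.908), and the direction rested on HCD 1, since it was -0.52 without that library. The gene overlaps the small RNA models Gm27483 and Gm27786 on the opposite strand, and the sources used here do not give strand use, so reads of these could not be told apart.

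H19 and skeletal muscle genes were highest in the same 3 tumours. The lowest tumour differed, being HCD 3 for H19 and ND 1 for the muscle sum. The summed level of 10 skeletal muscle genes was 5.44, 789 and 12.3 FPKM in the ND and 890, 93.2 and 6.90 FPKM in the HCD tumours. HCD 1, ND 2 and HCD 2, in this order, had the most of both by this sum. Single muscle genes differed in the order of HCD 1 and ND 2. Acta1, the largest part of the sum in both, was at 449 FPKM in HCD 1 and 275 FPKM in ND 2. Myh1, Tnnt3, Tnnc2 and Atp2a1 were likewise higher in HCD 1, but Ckm, Myh4, Mylpf, Myl1 and Pvalb were higher in ND 2. In HCD 1, ND 2 and HCD 2, 9 of the 10 muscle genes reached 1 FPKM, against 2 of the 10 in the other 3. Pvalb, a calcium buffer of fast muscle fibres, was at 0 in ND 1. The remaining gene, Tnnc2, stayed at or below 0.123 FPKM in every library. The genes nearest to H19 in profile were Xirp2, Mustn1 and Nrap, at distances of 0.200, 0.226 and 0.290, all known as genes expressed in striated muscle. Xirp2, which encodes a protein of the muscle actin cytoskeleton, was at 0.257, 2.90 and 0.459 FPKM in the ND and 10.5, 0.998 and 0.106 FPKM in the HCD tumours, a 98.5-fold range. Without ND 2 and HCD 1, the libraries with the most muscle transcripts and also the most H19 of their groups, the H19 log2 difference was -0.03. That fit was chosen after the data were seen, and it cannot tell a part of muscle from the spread of H19 itself. Adipocyte and adipocyte precursor markers, summed over 7 genes, were also highest in HCD 1 (65.7 FPKM) and lowest in HCD 3 (6.31 FPKM), with 10.4 to 27.9 FPKM in ND. Most of the HCD 1 sum was Car3 (47.6 FPKM), while Fabp4, Cfd, Plin1, Lep and Pdgfra were each highest in HCD 2. Of these 7, 3 had a mean of 1 FPKM or more, and the fat cell genes Plin1 and Lep were at most 0.277 and 0.182 FPKM. The part of muscle and fat transcripts in the H19 values was not tested.

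**Figure D4:**
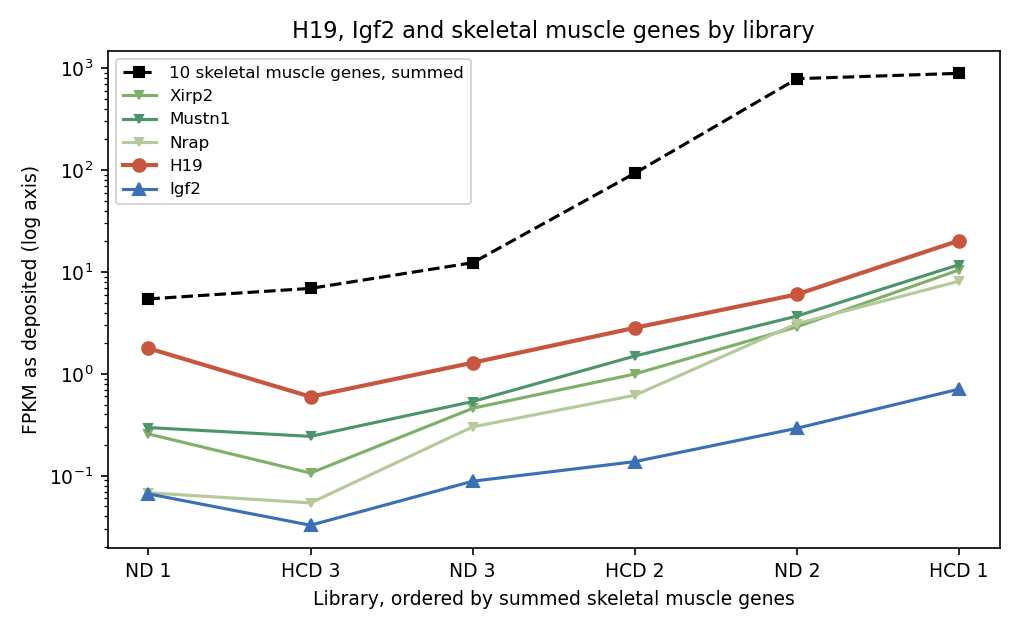
FPKM (log axis) of H19, Igf2, the summed 10 skeletal muscle genes, and Xirp2, Mustn1 and Nrap in each library, ordered by the muscle sum. H19 and Igf2 are highest in HCD 1 and next highest in ND 2, the libraries with muscle sums of 890 and 789 FPKM; Xirp2, Mustn1 and Nrap were chosen for their likeness to H19.

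Igf2, the imprinted growth factor gene that shares an enhancer region with H19 and lies 72.6 kb from it, was at 0.0665, 0.293 and 0.0885 FPKM in the ND and at 0.710, 0.138 and 0.0327 FPKM in the HCD tumours. These values came from 20, 101 and 24 read pairs in ND and 190, 37 and 9 in HCD. The tumours fell in the same order as for H19 except that ND 1 and ND 3 changed places. With a mean of 0.221 FPKM, Igf2 lay below the level for testing. Of 22 imprinted genes, 11 were tested and 0 called, with 5 higher and 6 lower means in HCD and a median log2 difference of -0.01. Impact, a regulator of translation under stress, was at 21.9 ± 1.63 FPKM in the ND and 19.4 ± 1.03 FPKM in the HCD tumours (SD, n = 3, limma adjusted p = 0.794). Impact was among 2 of the 11 tested without overlap between the groups, where 12.1% of all genes tested had none. Zrsr1, a splicing factor gene, was at 4.72 ± 0.241 and 4.75 ± 0.638 FPKM, and Igf2r, the receptor that clears Igf2, at 2.76 ± 0.549 and 3.36 ± 0.821 FPKM.

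Dlk1 (ENSMUSG00000040856, chr12:109452823-109463336, plus strand) encodes a membrane protein related to Notch ligands that marks hepatoblasts, the bipotent progenitors of the fetal liver. It was at 0.0469, 0.0136 and 0.0433 FPKM in the ND and at 0.0439, 0.0292 and 0.0142 FPKM in the HCD tumours. The lowest tumours, ND 2 and HCD 3, came from different diets. These values rested on 18, 6 and 15 read pairs in ND and 15, 10 and 5 in HCD, 69 in all, and the 95% Poisson intervals of the libraries with the fewest (1.62 to 11.7) and the most read pairs (10.7 to 28.4) cover counting error only. Dlk1 was left out of the main fit at this depth. In the fit without a filter its log2 difference was -0.01 (SE 0.02, limma adjusted p = 0.941), a value held near 0 by the pseudocount. An exact two-sided permutation test gave p = 0.8. Other genes of the same imprinted cluster were low too, with means of 0.728 FPKM for Meg3 and 0.612 FPKM for Rian, both maternally expressed noncoding RNAs, 0.0457 FPKM for Mirg and 0.294 FPKM for Dio3. Dlk1 was the only member below the level for testing.

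**Figure D5:**
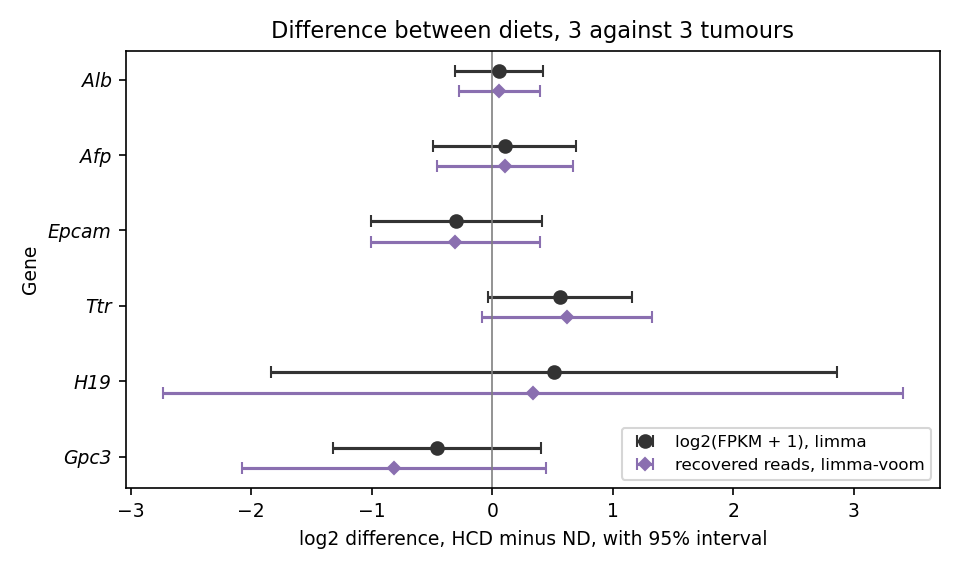
Log2 difference, HCD minus ND, with its 95% interval for the 6 tested genes, from limma on log2(FPKM + 1) (black) and from limma-voom on recovered reads (purple). Every interval includes 0, that of Alb is the narrowest (-0.31 to 0.42) and that of H19 the widest (-1.83 to 2.86) on the log2(FPKM + 1) scale.

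Other genes of fetal and progenitor liver were described from a list of 25, of which 18 were tested and 0 called. Means were higher in HCD for 3 and lower for 15, with a median log2 difference of -0.11, where 44.3% of all genes tested had a lower mean. All 6 macrophage, 5 T cell and 5 endothelial markers had a higher mean in HCD, with log2 differences of 0.25 to 0.86 and none called. The fibroblast markers Col1a1, Col1a2, Col3a1, Dcn and Pdgfra had log2 differences of -0.15 to -0.05 and Lum 0.23, none called. The part of any of these cells in the split was not tested. That split rested in part on single libraries, with 8 higher and 10 lower without ND 3, 6 and 12 without HCD 1, and 6 and 12 without ND 2 and HCD 1. The leading genes of the list were the keratins of simple epithelia, Krt18 at 1271 ± 174 FPKM in the ND and 1188 ± 120 FPKM in the HCD tumours and Krt8 at 586 ± 76.2 and 569 ± 75.3 FPKM (SD, n = 3). Aldh1a1, a retinal dehydrogenase, was at 284 ± 30.8 and 359 ± 72.8 FPKM, and 1 of the 3 with a higher mean. In 3 of the 18 tested genes the groups did not overlap, all lower in HCD, where 12.1% of all genes tested had no overlap, and these were chosen after their values were seen. Sox4, a transcription factor of progenitor cells, was at 22.9 ± 2.65 and 16.7 ± 3.00 FPKM. Cd44, the hyaluronan receptor, was at 81.6 ± 3.83 and 67.9 ± 6.63 FPKM, and Hmga2, a chromatin protein of embryonic cells, at 0.817 ± 0.0504 and 0.502 ± 0.0364 FPKM. Each of these 3 had a limma adjusted p of 0.794.

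The listed regulators of these genes all reached the level for testing. Of 18 listed repressors and activators of Afp, H19, Gpc3 and Alb, 18 were tested and 0 called, with 9 higher and 9 lower means and a median log2 difference of 0.00. Foxa2, a pioneer factor of the liver, was at 27.7 ± 2.95 FPKM in the ND and 26.9 ± 3.10 FPKM in the HCD tumours (SD, n = 3), and Hnf4a, the main hepatocyte nuclear receptor factor, at 23.1 ± 4.45 and 17.9 ± 0.949 FPKM. Ctcf, which binds the control region between H19 and Igf2, was at 18.6 ± 0.455 and 19.6 ± 0.329 FPKM. Zhx2, the postnatal repressor of Afp, H19 and Gpc3, was singled out after its values were seen. Its levels were 5.17, 5.07 and 4.53 FPKM in the ND and 4.14, 3.67 and 4.08 FPKM in the HCD tumours. All 3 HCD tumours lay below all 3 ND tumours, by a log2 difference of -0.26 (SE 0.08, limma unadjusted p = 0.0137, limma adjusted p = 0.794). The groups did not overlap in 2 of the 18 regulators, Zhx2 and Ctcf, the latter higher in HCD. That is near the 12.1% of all genes tested without overlap, so it is not particular to these regulators. The Zhx2 targets Afp, H19 and Gpc3 had log2 differences of 0.10, 0.52 and -0.46, none of them called. Zbtb20, a postnatal repressor of Afp, was also chosen after its values were seen, and was at 11.5 to 14.8 FPKM in the ND and 11.7 to 13.6 FPKM in the HCD tumours.

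The libraries held 20351640 to 26228076 read pairs, as read from the steps of the values, and 11495 to 12050 genes reached 1 FPKM in a library. Log2 values of any pair of libraries correlated across genes at 0.9596 to 0.9864.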

How the data were processed

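The deposited table gives FPKM for each gene and library, computed by the authors, with 1 column per tumour per the file headers. Paired-end TruSeq libraries were made from total RNA, per the labels' protocols. CASAVA 1.8, TopHat2 2.0.9, the tools HTSeq and edgeR, and the build mm10 appear in the submitters' processing notes, with no role given. The sources used here give neither annotation release nor strand use.

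The members and lists were chosen with earlier results of these data known. The 13417 genes that averaged 0.5 FPKM or more were fitted in limma 3.58.1 (R 4.3.3) on log2(FPKM + 1), with diet as the only term, all 6 libraries, a variance trend, two-sided p-values, and Benjamini-Hochberg adjustment with calls at 0.05. Single values had exact permutation tests (Python 3.11.15), which cannot go below 0.1 here.

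Read pairs were recovered from the steps of the values with lengths near GENCODE M21 and were whole for 99.5% of tested genes; they summed to 99.6 to 99.7% of the library sizes. Genes were named by rule: the 7 members, the 3 with the highest mean in each list, called genes, and for members with a mean of at least 1 FPKM and a log2 range of at least 1 the 3 nearest profiles among 10911 genes, predicted models left out. Of the genes taken by the rule, 1 is not reported here. Outside the rule, the text also names chromosomal neighbours of the members and single genes of the lists and cell type markers, picked with their values known. Alternatives were a pseudocount of 0.1, no filter, a filter of 1 FPKM in 3 libraries, no variance trend, median-ratio scaling, a replicate block, leaving out each library, and, chosen after seeing the data, limma-voom on the recovered reads, merged exon length, and leaving out ND 2 with HCD 1. Promoters were read from the RefSeq table for 5 of the 7 members, not for H19 and Ttr.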

Additional observations from a re-analysis of the deposited data

How the results depend on the processing

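No member was called under any of 14 alternatives, where the lowest adjusted p of a member was 0.595 (Ttr, without ND 2) and the highest 1.0. Over all genes the count called higher stayed at 0, and leaving out each library gave 0 to 1 called lower, the 1 being S100a9 without ND 2 (log2 difference -1.60, limma adjusted p = 0.0334). Leaving out each library gave log2 differences of -0.059 to 0.19 for Alb, -0.092 to 0.33 for Afp, -0.52 to 1.35 for H19, -0.49 to -0.04 for Epcam, -0.85 to -0.16 for Gpc3 and 0.38 to 0.85 for Ttr, so the first 3 changed sign. The Afp to Alb log2 ratio differed by -0.075 to 0.14, negative without ND 3 or HCD 3. Without ND 2 and HCD 1, Alb was at -0.0034 and H19 at -0.029. The direction of Epcam, Gpc3 and Ttr was kept in all 14. Why these values moved was not tested.

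Same-numbered libraries correlated at -0.19, 0.14 and 0.06 in their deviations from group means, and libraries of unlike number at -0.52 to 0.53. These few correlations gave no sign of pairing by replicate number, but cannot exclude it. With the replicate number as a block, 0 genes were called higher and 0 lower, and the differences stayed as they were. The Epcam value of -0.30 then had an SE of 0.11 (limma unadjusted p = 0.0463, limma adjusted p = 0.794). Depth limits Dlk1, with 5 to 18 read pairs a library, and Igf2. Intervals on shares and reads cover counting error only.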
